A study of Rattus norvegicus with 6 samples.

Results

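The cyclins, the cyclin-dependent kinases (CDKs), the CDK inhibitors of the CIP/KIP and INK4 families, the E2F transcription factors and the pocket proteins of the retinoblastoma family were examined in injured rat sciatic nerve. Members were picked by a pattern on gene symbols, in a part of the study proposed with earlier results of these data known, which gave 65 of the 29884 genes in the count table. Of these, 33 act in the cell division cycle, 14 act on transcription by RNA polymerase II, and 18 have other or mixed roles. Ccnb3 and Ccno were at 0 counts in every library, and the other 63 passed the low-count filter.

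The tissue came from wild type rats with the chronic constriction injury model (CCI), where loose ties placed on the sciatic nerve damage it and give rise to neuropathic pain. The conduit group (n = 3 libraries) was injured nerve that received a PLLA-PCL-RVC conduit, a piezoelectric polymer sleeve, per the submitters, loaded with the local anaesthetic ropivacaine (RVC). The untreated group (n = 3 libraries) was injured nerve without a conduit. The labels give no age, sex or time after injury, and do not say whether each library came from its own animal, so p-values measure the spread between libraries, which may be partly technical. A conduit without drug and an uninjured nerve are not analysed here, so the comparison covers sleeve, drug and piezoelectric material together.

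Passage through the cell cycle is driven by CDKs, which are active only when bound to a cyclin. D-type cyclins with Cdk4 or Cdk6 phosphorylate the pocket proteins and so release E2F factors, which switch on cyclins E and A and the DNA synthesis genes, and cyclins A and B with Cdk1 then drive mitosis. CIP/KIP and INK4 proteins hold the kinases in check, and mature myelinating Schwann cells have left the cycle, whereas nerve injury makes Schwann cells, fibroblasts and macrophages divide. A second branch of the same families, such as Cdk7 with cyclin H and Cdk9 with cyclin T, phosphorylates RNA polymerase II and is used by dividing and resting cells alike.

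Promoters of members with low ratios are shown because several carry the same short elements. Of the 9 members at least 8-fold lower in conduit nerves 6 had a promoter window, and the 5 of these with an NF-Y box are printed. The window left out, that of Ccne1, held no match to any of the letters searched, so the printed windows share an NF-Y box by selection. Sequences are RefSeq promoter windows of the GRCr8 assembly, from 250 bases before to 50 bases after the annotated start, which were found for 51 of the 65 members. They are written 5′ to 3′ on the gene's strand. Capitals mark matches, on either strand, to CHR letters (TTTGAA or TTCGAA, the element read by the DREAM and MuvB complexes), to the NF-Y box (CCAAT, which reads ATTGG on the other strand) and to E2F letters (TTTGGCGC, TTTCGCGC, TTTCCCGC or TTTGCCGC). Cdk1 (chr20:19265043-19265342, plus strand), Ccnb2 (chr8:79981609-79981908, minus), Ccnb1 (chr2:33655176-33655475, minus), Ccnf (chr10:13783620-13783919, minus) and E2f7 (chr7:48036653-48036952, plus) are those 5. Cdkn1b (chr4:169491254-169491553, plus) was higher and is shown for contrast.
Cdk1: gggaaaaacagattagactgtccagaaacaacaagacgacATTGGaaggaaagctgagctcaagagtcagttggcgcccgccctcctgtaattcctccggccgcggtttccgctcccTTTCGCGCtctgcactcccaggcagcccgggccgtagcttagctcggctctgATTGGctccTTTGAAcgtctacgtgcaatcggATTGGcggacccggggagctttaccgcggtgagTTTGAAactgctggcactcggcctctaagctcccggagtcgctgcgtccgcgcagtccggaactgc
Ccnb2: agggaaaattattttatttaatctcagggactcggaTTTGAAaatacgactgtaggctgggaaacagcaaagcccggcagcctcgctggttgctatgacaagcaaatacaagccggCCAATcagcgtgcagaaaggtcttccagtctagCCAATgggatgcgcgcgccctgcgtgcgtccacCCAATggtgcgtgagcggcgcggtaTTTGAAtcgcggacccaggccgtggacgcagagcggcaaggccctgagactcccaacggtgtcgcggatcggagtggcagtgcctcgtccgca
Ccnb1: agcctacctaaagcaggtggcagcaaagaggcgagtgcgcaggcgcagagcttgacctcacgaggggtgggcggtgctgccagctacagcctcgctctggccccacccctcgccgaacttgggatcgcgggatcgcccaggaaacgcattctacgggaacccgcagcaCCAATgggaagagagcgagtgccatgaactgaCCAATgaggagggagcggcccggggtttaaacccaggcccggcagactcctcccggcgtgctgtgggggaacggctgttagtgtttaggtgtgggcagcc
Ccnf: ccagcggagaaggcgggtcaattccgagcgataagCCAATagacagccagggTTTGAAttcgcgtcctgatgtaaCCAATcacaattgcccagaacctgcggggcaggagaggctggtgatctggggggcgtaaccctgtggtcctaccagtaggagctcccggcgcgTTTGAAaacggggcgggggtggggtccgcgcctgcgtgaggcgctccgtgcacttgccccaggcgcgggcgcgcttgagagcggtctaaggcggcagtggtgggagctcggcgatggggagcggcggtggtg
E2f7: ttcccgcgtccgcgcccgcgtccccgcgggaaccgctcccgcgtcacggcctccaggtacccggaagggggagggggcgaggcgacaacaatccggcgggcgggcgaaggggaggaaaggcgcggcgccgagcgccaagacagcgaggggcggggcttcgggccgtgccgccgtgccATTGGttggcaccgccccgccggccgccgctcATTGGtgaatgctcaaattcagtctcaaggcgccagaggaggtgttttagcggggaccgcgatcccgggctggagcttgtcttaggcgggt
Cdkn1b: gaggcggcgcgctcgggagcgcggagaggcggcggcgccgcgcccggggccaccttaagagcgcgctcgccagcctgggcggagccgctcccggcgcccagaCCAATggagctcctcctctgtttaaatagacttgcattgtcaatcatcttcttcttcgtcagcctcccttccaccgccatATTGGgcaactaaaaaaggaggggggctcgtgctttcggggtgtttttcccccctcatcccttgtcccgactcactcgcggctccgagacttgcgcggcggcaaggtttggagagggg

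The Cdk1 window held 2 CHR matches, 3 NF-Y boxes and 1 E2F match. The Ccnb2 window held 3 NF-Y boxes on 1 strand, beginning 134, 101 and 68 bases before the start, with a CHR match at 43 bases before it. Ccnb1 and E2f7 had 2 NF-Y boxes each and no match to the CHR or E2F letters listed above. Other variants of these elements were not searched for. In Ccnb1, Ccnb2 and E2f7, neighbouring boxes on the same strand began 32 or 33 bases apart. The same held for the Cdk1 boxes that began 81 and 49 bases before the start, while its farthest box began 210 bases before it. The boxes of Ccnf, also on the same strand, lay farther apart, beginning 215 and 175 bases before the start. The 2 boxes of Cdkn1b lay on opposite strands. A pair of boxes on 1 strand 31 to 34 bases apart, a spacing looked for only after these windows had been read, was present in 4 of 22 cell-cycle windows, in 0 of 12 transcriptional windows and in 1.42% of the 12103 windows of tested genes. CHR letters were present in 6 of 22 cell-cycle windows, 0 of 12 transcriptional windows and 4 of 17 windows of members with other roles. They were present in 13.9% of tested genes and in 19.5% of all RefSeq promoters. The 6 were Cdk1, Ccnb2, Ccnf, Cdkn2b, E2f3 and Rbl2, of which E2f3 and Rbl2 were not called. Those of other roles were Ccng1, Ccni, Cdk16 and Cdk18, of which Ccng1 fell and Ccni and Cdk16 rose. NF-Y boxes alone were present in 9 of 22 cell-cycle windows, in 7 of 12 transcriptional windows and in 37.3% of tested genes. E2F letters were present in 4 of 22 cell-cycle windows (Cdk1, E2f3, Rb1 and Rbl1), in 0 of 12 transcriptional windows and in 3.69% of tested genes. A match describes letters only and does not show that a factor binds there.

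**Figure D1:**
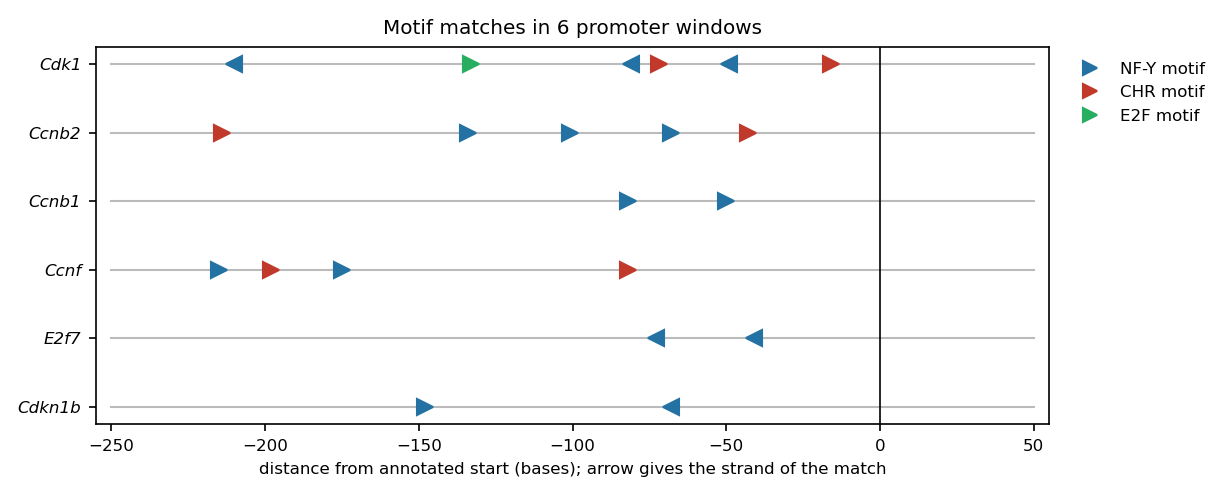
Motif matches in the 6 printed promoter windows, by distance in bases from the annotated start (vertical line), with arrowheads giving the strand of each match. The boxes of Cdk1, Ccnb2, Ccnb1 and E2f7 include pairs on 1 strand 32 or 33 bases apart, while the 2 boxes of Cdkn1b point in opposite directions.

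Library totals ran from 38401951 to 42225086 counts. Levels are given as CPM, which sets each count against the total of its library, after TMM scaling of the totals (trimmed mean of M-values), and fold changes as log2 of conduit over untreated nerve ± SE, with Benjamini-Hochberg adjusted p over all 15464 genes tested in edgeR. Of those genes 50.2% were called at an adjusted p under 0.05, 24% as higher and 26.2% as lower in conduit nerves, so a call alone says little about any member. The labels number 5 batches, 3 in the conduit and 2 in the untreated group, and no batch holds both groups, so batch and treatment cannot be told apart. Markers of myelinating Schwann cells (6 of 6 higher) summed to 153899 to 200507 CPM in conduit and 10129.5 to 25398 CPM in untreated libraries. All 8 dividing cell markers, of which Cdk1 is also a member, fell, and summed to 85.2 to 97.3 CPM in conduit and 374 to 508 CPM in untreated libraries. All 10 macrophage markers fell, and summed to 428 to 761 CPM in conduit and 2909.8 to 3521 CPM in untreated libraries. Of 8 T and NK cell markers 6 fell, and the list summed to 4.48 to 6.16 CPM in conduit and 51.2 to 137 CPM in untreated libraries. Skeletal muscle markers summed to 3.39 to 8.04 CPM in conduit libraries, and to 9939 CPM in untreated replicate 1 against 72.4 and 8.56 CPM in the other untreated libraries. The part of any cell type in the members' differences was not tested, and in bulk tissue fewer cells of a type and less RNA per cell cannot be told apart.

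The genes of the division cycle were lower in conduit nerves for the most part, whereas those of transcription lay close to the median gene. Of 32 cell-cycle members tested, 20 fell (62.5%, beside 26.2% of all genes) and 4 rose (12.5%, beside 24%), with a median log2 fold change of -1.001. Of 14 transcriptional members, 2 fell (14.3%), 1 rose (7.14%) and 11 did not pass, with a median of -0.06 beside -0.04 over all genes tested. Calls of at least 2-fold were made for 16 cell-cycle members as lower and 2 as higher, beside 15.1% and 14.6% of all genes, and for 0 transcriptional members in either direction. The transcriptional fold changes spanned -0.78 to 0.37, and those of the cell-cycle members spanned -5.35 to 1.75. Libraries of the 2 groups did not overlap in 24 cell-cycle and 6 transcriptional members, beside 61.7% of all genes.

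**Figure D2:**
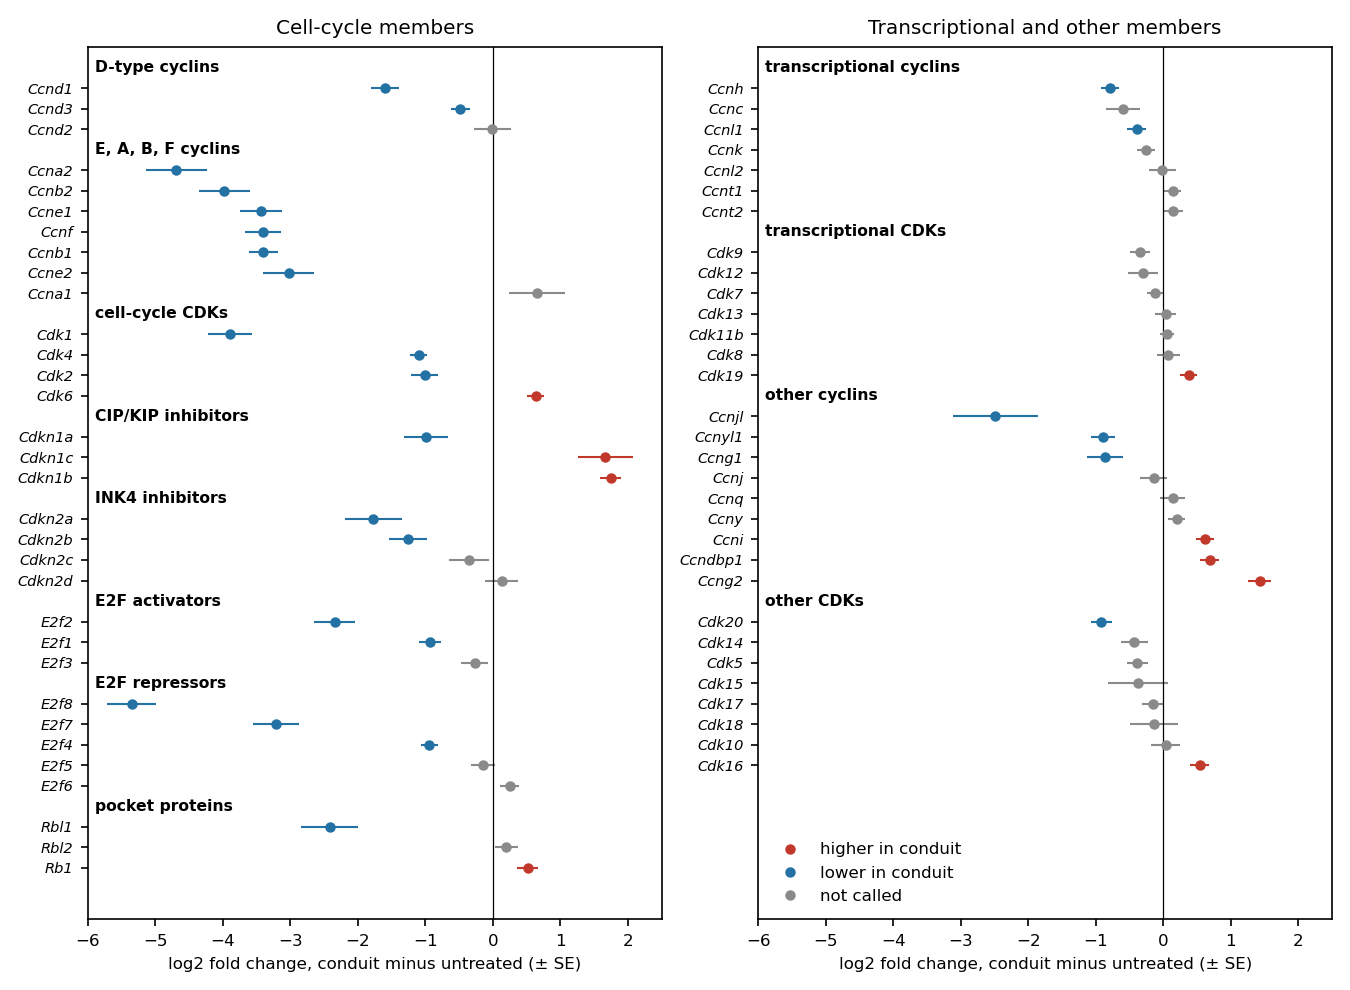
Log2 fold change (conduit minus untreated, points) with its standard error (bars) for the 63 members tested, by role. Cell-cycle members (left) span -5.35 to 1.75, and transcriptional members (upper right) stay between -0.78 and 0.37. With library totals alone 3 members are called higher, and Cdk19 lies just below 0.

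How the libraries were scaled set the sign of small changes. TMM factors were 0.852 to 0.904 in conduit and 1.12 to 1.18 in untreated libraries. With library totals alone, the median over the genes tested was -0.43 in place of -0.04, and 2291 genes were called higher and 6554 lower, in place of 3711 and 4049. The cell-cycle median moved to -1.38 and the transcriptional one to -0.45. Relative to the median gene they were at -0.95 and -0.02 (-0.96 and -0.02 with TMM). Rescaling shifts every gene by nearly the same amount, so these distances could hardly have changed. Of the 9 members called higher with TMM only Cdkn1b, Cdkn1c and Ccng2 kept that call with library totals. The transcriptional members called lower numbered 8 in that setting, and 37 of the 63 members were called lower, in place of 26.

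**Figure D3:**
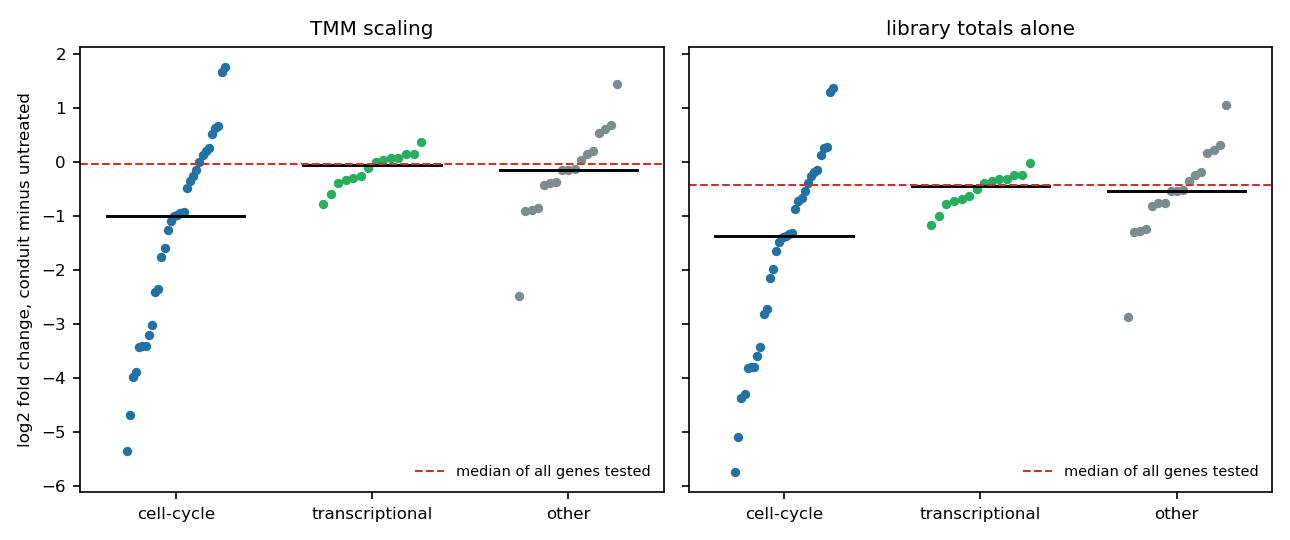
Log2 fold change (conduit minus untreated) of each member tested (points), by class, with the class median (black line) and the median of all genes tested (dashed line), under TMM scaling (left) and library totals alone (right). Both the transcriptional median and the all-gene median shift down by about the same amount when library totals are used, since rescaling shifts every gene nearly alike.

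The cyclins of S phase and mitosis had the lowest median ratio of any role group. Of 8 members 7 were tested, and 6 of these fell (85.7%, beside 26.2% of all genes), with a median of -3.41 over the group. Ccna2, cyclin A2 of S phase and mitotic entry, was at 1.57, 1.07 and 0.733 CPM in conduit nerves and at 18.9, 45.5 and 22.6 CPM in untreated nerves. Its untreated replicate 2 stood at least 2-fold above the other untreated libraries, and no conduit library came near any of them (log2 fold change -4.69 ± 0.45, adjusted p = 0.000212). Ccnb1, the main mitotic cyclin, was at 2.91, 2.29 and 2.04 CPM in conduit and 21.1, 29.7 and 25.9 CPM in untreated nerves (-3.40 ± 0.22, adjusted p = 7.94e-05). Ccnb2, a second B-type cyclin whose promoter held the row of 3 NF-Y boxes, was at 2.01, 0.791 and 0.917 CPM in conduit and 17.3, 23.2 and 18.2 CPM in untreated nerves (-3.98 ± 0.38, adjusted p = 0.000207). For both B-type cyclins the highest conduit library lay below the lowest untreated one by several fold.

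The E-type cyclins, which with Cdk2 start DNA synthesis, also fell. Ccne1 was at 0.577, 0.763 and 1.05 CPM in conduit and 9.998, 8.83 and 7.06 CPM in untreated nerves (-3.43 ± 0.31, adjusted p = 0.000173). Ccne2 was at 1.70, 1.84 and 1.55 CPM in conduit and 10.9, 22.0 and 8.56 CPM in untreated nerves (-3.03 ± 0.38, adjusted p = 0.0007). As with Ccna2, untreated replicate 2 was the highest library for Ccne2, whereas for Ccne1 it was replicate 1. Ccnf, which recruits substrates to an SCF ubiquitin ligase rather than to a CDK, was at 1.76, 0.933 and 1.34 CPM in conduit and 14.7, 13.7 and 14.6 CPM in untreated nerves (-3.41 ± 0.26, adjusted p = 0.000124). Its untreated libraries were the most even of the group. Ccna1, a cyclin A known mainly from the male germ line, was near the bottom of detection at 0.742, 0.933 and 1.13 CPM in conduit and 0.822, 0.404 and 0.552 CPM in untreated nerves, and the groups overlapped (0.65 ± 0.41, adjusted p = 0.222).

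Among the 4 CDKs that drive division 3 fell (75%, beside 26.2% of all genes), with Cdk1 lowest by ratio, and 1 rose (25%, beside 24%). Cdk1, the kinase of mitosis, was at 3.16, 2.15 and 1.34 CPM in conduit and 28.2, 39.6 and 30.996 CPM in untreated nerves, with a wide gap between the closest libraries (-3.89 ± 0.33, adjusted p = 0.000141). Mki67, a marker of dividing cells that is no member, differed by -4.43 ± 0.34 beside it. Cdk2, the partner of cyclins E and A, was at 6.76, 5.85 and 8.91 CPM in conduit and 14.1, 15.6 and 13.7 CPM in untreated nerves (-1.01 ± 0.20, adjusted p = 0.00455). Cdk4, a partner of the D-type cyclins, was at 83.5, 72.4 and 75.3 CPM in conduit and 174, 169 and 150.4 CPM in untreated nerves (-1.10 ± 0.13, adjusted p = 0.000461). Both fell about 2-fold, with no overlap of libraries. Cdk6, the other D-type cyclin kinase, went the opposite way at 53.5, 49.0 and 45.6 CPM in conduit and 30.0, 29.9 and 35.6 CPM in untreated nerves (0.63 ± 0.13, adjusted p = 0.00527), though with library totals it was at 0.25 (adjusted p = 0.128). The ratio of Cdk4 to Cdk6 in FPKM, which no scaling of libraries can change, was 14.0, 13.3 and 14.8 in conduit nerves and 52.1, 50.8 and 37.9 in untreated nerves. Cdk4 therefore exceeded Cdk6 per length of gene in every library, and by less in conduit nerves.

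The D-type cyclins, the first to respond to growth factors, differed in size of change. Ccnd1 was at 159, 135 and 122.5 CPM in conduit and 425, 511 and 326 CPM in untreated nerves. It fell without overlap (-1.60 ± 0.20, adjusted p = 0.000677). Ccnd3 was at 82.3, 87.3 and 74.4 CPM in conduit and 127, 97.3 and 117 CPM in untreated nerves (-0.48 ± 0.14, adjusted p = 0.024). The call of Ccnd3 was lost when any library other than untreated replicate 2 was left out (adjusted p = 0.0585 to 0.0983). Ccnd2 was at 17.5, 16.0 and 27.2 CPM in conduit and 15.4, 26.9 and 18.7 CPM in untreated nerves, with overlapping libraries (-0.01 ± 0.27, adjusted p = 0.98).

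Per length of gene, the shares of each gene in the D-type family did not overlap between groups. The 3 shares make up the whole of the sum, so they are not independent, and a share can rise while its gene falls. Mean FPKM, which carries library totals, was lower in conduit nerves for Ccnd1 (31.3, untreated 124), Ccnd2 (12.6, untreated 16.6) and Ccnd3 (35.6, untreated 65.1). Ccnd1 made up 43.4, 38.8 and 35.9% of the family's summed FPKM in conduit nerves and 59.5, 66.0 and 53.8% in untreated nerves. Ccnd3 made up 43.6, 48.7 and 42.4% in conduit nerves and 34.6, 24.4 and 37.7% in untreated nerves. Ccnd2 made up 13.1, 12.6 and 21.8% in conduit nerves and 5.92, 9.54 and 8.47% in untreated nerves. In untreated nerves Ccnd1 was the leading D-type cyclin in every library, while in conduit nerves Ccnd3 led in each, narrowly so in replicate 1. With 3 libraries a group, an exact permutation test of such a share cannot go below p = 0.1, so none is given.

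**Figure D4:**
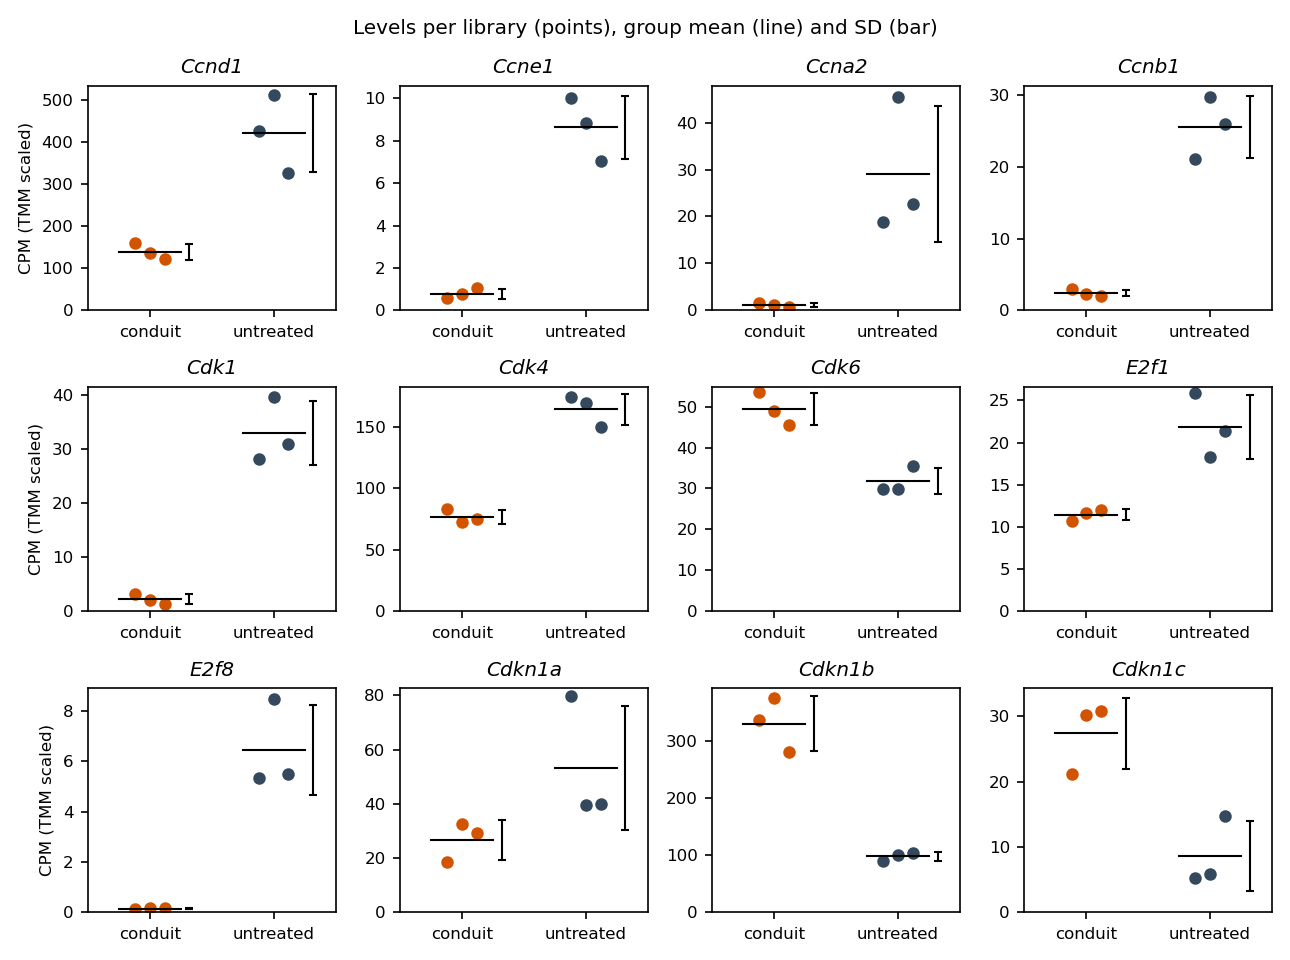
TMM-scaled CPM of 12 cell-cycle members in each library (points), with the group mean (line) and SD (bar), conduit at left and untreated at right in each panel. Conduit libraries lie below every untreated library for 9 of the genes and above for Cdk6, Cdkn1b and Cdkn1c, of which Cdk6 loses its call with library totals alone. Of the 32 cell-cycle members tested, the 8 that overlap between groups are not plotted. Libraries did not overlap in 61.7% of all genes tested.

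The CIP/KIP inhibitors, which bind cyclin-CDK complexes, moved in opposite directions. Cdkn1b, which encodes p27 and is held high in resting cells, had the highest FPKM of all members in each conduit library. It was at 338, 376 and 280.5 CPM in conduit and 90.0, 101 and 104 CPM in untreated nerves, with no overlap (1.75 ± 0.16, adjusted p = 0.000166). Cdkn1c, which encodes p57, was at 21.1, 30.2 and 30.8 CPM in conduit and 5.26, 5.86 and 14.8 CPM in untreated nerves (1.67 ± 0.41, adjusted p = 0.0119). Its untreated replicate 3 was more than 2-fold above the other untreated libraries and still below every conduit library. Cdkn1a, which encodes p21, was at 18.4, 32.7 and 29.2 CPM in conduit and 79.6, 39.7 and 40.1 CPM in untreated nerves (-0.99 ± 0.33, adjusted p = 0.0389). Untreated replicate 1, the library with the muscle transcripts, was about 2-fold above the other untreated libraries for Cdkn1a. Without it the log2 fold change was -0.58 (adjusted p = 0.0913), and leaving out any conduit library ended the call as well (adjusted p = 0.116 for replicate 1, 0.0535 for replicate 2 and 0.0792 for replicate 3).

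Set against each other per length, the CIP/KIP genes gave shares that did not overlap for 2 of the 3. These shares are not independent of each other either. Cdkn1b made up 88.8, 84.9 and 81.4% of the summed FPKM of the family in conduit nerves and 51.4, 68.6 and 64.8% in untreated nerves. Cdkn1a made up 4.82, 7.35 and 8.42% in conduit nerves and 45.2, 26.8 and 24.7% in untreated nerves. For Cdkn1c the shares overlapped, at 6.35, 7.79 and 10.2% in conduit nerves and 3.42, 4.54 and 10.5% in untreated nerves. The ratio of Cdkn1b to Ccnd1 in FPKM was 3.42, 4.49 and 3.70 in conduit nerves and 0.342, 0.319 and 0.517 in untreated nerves. The inhibitor was thus above the cyclin in each conduit library and below it in each untreated one on the FPKM scale, a statement on RNA and not on protein, whose level for p27 is set largely by its breakdown.

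**Figure D5:**
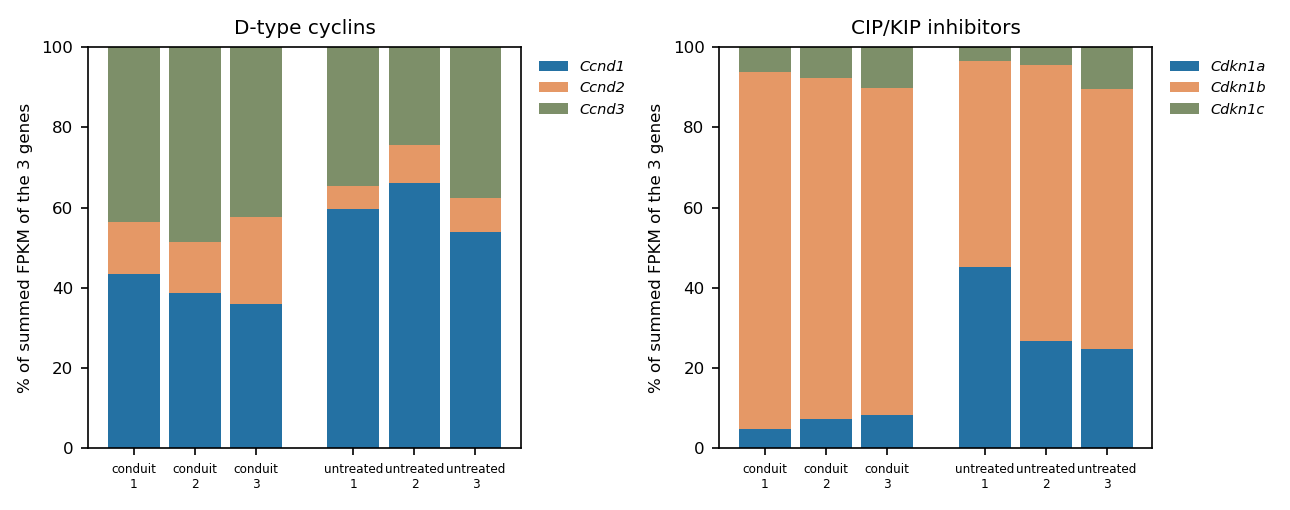
Share of each gene in the summed FPKM of its 3-gene family, per library, conduit libraries at left and untreated libraries at right in each panel. Ccnd1 takes 35.9 to 43.4% of the D-type cyclins in conduit and 53.8 to 66.0% in untreated nerves, and Cdkn1a takes 4.82 to 8.42% of the CIP/KIP genes in conduit and 24.7 to 45.2% in untreated nerves.

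Of the 4 INK4 genes, whose products bind Cdk4 and Cdk6 alone, 2 fell (50%, beside 26.2% of all genes) and 2 did not pass. Cdkn2a was at 1.13, 2.04 and 0.969 CPM in conduit and 6.92, 3.78 and 3.41 CPM in untreated nerves (-1.77 ± 0.42, adjusted p = 0.0109). The gene also encodes ARF from another reading frame, and counts per gene do not tell the products apart. Cdkn2b, its neighbour on the chromosome, was at 9.35, 18.4 and 15.7 CPM in conduit and 41.9, 36.6 and 25.3 CPM in untreated nerves (-1.26 ± 0.29, adjusted p = 0.00885). Neither gene overlapped between groups, and untreated replicate 1 was the highest library for both. Cdkn2c was at 12.2, 10.5 and 22.8 CPM in conduit and 16.6, 19.7 and 22.0 CPM in untreated nerves (-0.36 ± 0.30, adjusted p = 0.345). Conduit replicate 3 was well above the other conduit libraries, and without it Cdkn2c was called lower (-0.74, adjusted p = 0.0243). Cdkn2d was at 30.6, 28.4 and 18.4 CPM in conduit and 24.1, 17.9 and 28.6 CPM in untreated nerves, with overlap (0.13 ± 0.24, adjusted p = 0.674).

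Of the 8 E2F genes 5 fell (62.5%, beside 26.2% of all genes), 0 rose (beside 24%) and 3 did not pass. With library totals E2f3 (-0.67, adjusted p = 0.0313) and E2f5 (-0.54, adjusted p = 0.0475) were called lower as well. E2f8, an atypical repressor that is itself an E2F target, had the lowest ratio of all members, at 0.137, 0.170 and 0.157 CPM in conduit and 5.32, 8.50 and 5.50 CPM in untreated nerves (-5.35 ± 0.36, adjusted p = 8.56e-05). Its conduit values rest on 5, 6 and 6 counts, beside 246, 421 and 239 counts in the untreated libraries. E2f7, the other atypical repressor, was at 0.412, 0.424 and 0.550 CPM in conduit and 3.79, 5.69 and 3.45 CPM in untreated nerves (-3.21 ± 0.34, adjusted p = 0.000348), on 15, 15 and 21 conduit counts. Both atypical factors were thus far lower in each conduit library than in any untreated one.

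Of the 3 activating E2Fs, which induce S phase genes, 2 fell (66.7%, beside 26.2% of all genes). E2f2 was at 2.14, 1.92 and 1.31 CPM in conduit and 12.1, 7.90 and 7.29 CPM in untreated nerves (-2.34 ± 0.31, adjusted p = 0.000826). E2f1 was at 10.7, 11.6 and 12.02 CPM in conduit and 25.8, 18.3 and 21.4 CPM in untreated nerves (-0.93 ± 0.16, adjusted p = 0.00299). E2f3 was at 7.23, 9.13 and 8.01 CPM in conduit and 8.46, 12.1 and 8.91 CPM in untreated nerves, with overlap (-0.27 ± 0.20, adjusted p = 0.3). The order of the 3 by fold change, E2f2 lowest and E2f3 closest to 0, is descriptive, since the differences between genes were not tested. E2f4, the main partner of pocket proteins in resting cells, was at 18.5, 20.5 and 19.1 CPM in conduit and 41.0, 36.9 and 33.9 CPM in untreated nerves, lower without overlap (-0.94 ± 0.12, adjusted p = 0.000819). E2f5, which also acts with pocket proteins, was at 13.1, 12.9 and 12.4 CPM in conduit and 12.7, 17.7 and 12.1 CPM in untreated nerves (-0.14 ± 0.18, adjusted p = 0.537). E2f6, a repressor that does not bind pocket proteins, was at 38.9, 37.5 and 32.5 CPM in conduit and 32.05, 33.3 and 26.3 CPM in untreated nerves (0.25 ± 0.14, adjusted p = 0.177). Both overlapped between groups, E2f6 only through conduit replicate 3 and untreated replicate 2.

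The 3 pocket proteins, which bind E2Fs and hold their targets off, differed in direction. Rbl1 (p107), itself induced in cycling cells, was at 5.69, 3.11 and 3.38 CPM in conduit and 13.5, 34.8 and 16.8 CPM in untreated nerves (-2.42 ± 0.42, adjusted p = 0.00266). Untreated replicate 2 was again the highest library, at more than 2-fold above the others. Rb1 was at 63.2, 60.1 and 74.3 CPM in conduit and 40.6, 55.2 and 42.5 CPM in untreated nerves (0.51 ± 0.16, adjusted p = 0.0296), a call that was lost with library totals (0.13) and whenever a library other than untreated replicate 2 was left out (adjusted p = 0.0505 to 0.0852). The gene table places Lpar6 inside Rb1, and whether reads were counted by strand is not stated, so reads of the 2 genes may not be told apart. Rbl2 (p130), the pocket protein of resting cells, was at 36.5, 44.4 and 48.4 CPM in conduit and 30.8, 38.2 and 43.7 CPM in untreated nerves, with overlap (0.20 ± 0.17, adjusted p = 0.364). The ratio of Rbl2 to Rbl1 in FPKM was 4.49, 10.01 and 10.03 in conduit nerves and 1.60, 0.768 and 1.82 in untreated nerves, without overlap.

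The transcriptional cyclins and kinases differed little. Ccnh, cyclin H of the CDK-activating kinase and of TFIIH, had the lowest ratio, at 15.3, 13.5 and 13.6 CPM in conduit and 26.2, 24.8 and 21.8 CPM in untreated nerves, with no overlap (-0.78 ± 0.13, adjusted p = 0.0026). Its assembly factor Mnat1 was at 13.8 ± 2.54 CPM in conduit and 21.5 ± 1.31 CPM in untreated nerves (SD, n = 3 each, -0.64 ± 0.17, adjusted p = 0.0154). Without conduit replicate 1 or 2, Mnat1 missed the threshold (adjusted p up to 0.0638). Cdk7, the kinase of that complex, was at 16.9, 14.4 and 15.2 CPM in conduit and 16.8, 17.3 and 16.3 CPM in untreated nerves (-0.12 ± 0.13, adjusted p = 0.487). Of the 3 subunits, the kinase alone overlapped between groups with TMM scaling. With library totals Cdk7 too was called lower (-0.50, adjusted p = 0.0161).

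The 3 P-TEFb genes, whose kinase releases paused polymerase, did not pass with TMM scaling. Cdk9 was at 61.5, 57.8 and 49.6 CPM in conduit and 80.4, 61.9 and 72.2 CPM in untreated nerves (-0.34 ± 0.14, adjusted p = 0.082), and was called lower without untreated replicate 2 (-0.44, adjusted p = 0.0339) and with library totals (-0.73, adjusted p = 0.00258). Its partners Ccnt1 (0.14 ± 0.12) and Ccnt2 (0.14 ± 0.15) overlapped between groups. Cdk19, a Mediator kinase and paralogue of Cdk8, was the only transcriptional member called higher, at 66.3, 65.2 and 76.9 CPM in conduit and 47.4, 59.4 and 53.9 CPM in untreated nerves (0.37 ± 0.13, adjusted p = 0.0489), and was at -0.01 with library totals. Its call was lost whenever a library other than untreated replicate 2 was left out (adjusted p up to 0.138). Cdk8 was at 0.07 ± 0.17, and Ccnc, the cyclin of both kinases, was at 34.6, 30.6 and 30.9 CPM in conduit and 40.8, 69.3 and 35.3 CPM in untreated nerves (-0.60 ± 0.25, adjusted p = 0.0809). Most of that difference came from untreated replicate 2, without which Ccnc was at -0.25, and Ccnc was called lower without untreated replicate 3 (-0.78, adjusted p = 0.0336) and with library totals (-0.996, adjusted p = 0.0154).

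Among kinases and cyclins of transcription elongation and splicing, Ccnl1 fell, at 34.4, 32.8 and 27.8 CPM in conduit and 44.5, 43.7 and 36.7 CPM in untreated nerves (-0.39 ± 0.14, adjusted p = 0.046). That call held when untreated replicate 3 was left out and was lost when any other library was (adjusted p = 0.0847 to 0.194). Its paralogue Ccnl2 was at 50.3, 53.9 and 42.04 CPM in conduit and 61.5, 36.1 and 50.003 CPM in untreated nerves and overlapped between groups (-0.01 ± 0.21), as did Cdk11b (0.06 ± 0.10), the kinase that L-type cyclins bind. Cdk11b had the most even levels of the class, at 57.9, 57.5 and 55.6 CPM in conduit and 57.5, 52.9 and 53.6 CPM in untreated nerves. Ccnk, the cyclin of Cdk12 and Cdk13, was at -0.26 ± 0.14 (adjusted p = 0.163), Cdk12 at -0.30 ± 0.22 and Cdk13 at 0.04 ± 0.16. With library totals Ccnk (-0.64, adjusted p = 0.00746), Cdk12 (-0.69, adjusted p = 0.0414) and Cdk11b (-0.33, adjusted p = 0.0291) were called lower.

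The members with other roles went both ways, with 4 of 17 tested higher and 4 lower and a median of -0.14. These shares (23.5% each) were close to those of all genes, 24% higher and 26.2% lower. Ccng2, an unconventional cyclin linked to cell-cycle arrest, was at 88.8, 73.1 and 75.2 CPM in conduit and 26.7, 25.3 and 35.9 CPM in untreated nerves (1.43 ± 0.17, adjusted p = 0.000526). Its paralogue Ccng1 was at 147, 135 and 142 CPM in conduit and 275, 337 and 155 CPM in untreated nerves (-0.86 ± 0.27, adjusted p = 0.0309). The 2 G-type cyclins thus had opposite signs, but Ccng1 kept its call only when untreated replicate 3, its lowest untreated library, was left out, and missed it without each of the others (adjusted p up to 0.107). Ccnjl had the lowest ratio of the class, at 0.880, 0.311 and 0.760 CPM in conduit and 1.26, 4.42 and 5.32 CPM in untreated nerves (-2.49 ± 0.63, adjusted p = 0.0137). Untreated replicate 1 lay far closer to the conduit libraries of Ccnjl than the other untreated libraries did.

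Ccnyl1, a relative of the membrane-bound cyclin Y, fell, at 50.9, 31.5 and 39.7 CPM in conduit and 77.0, 80.4 and 69.3 CPM in untreated nerves (-0.89 ± 0.18, adjusted p = 0.0058). Ccny itself was at 50.1, 48.6 and 50.8 CPM in conduit and 39.0, 48.6 and 42.8 CPM in untreated nerves and did not pass (0.20 ± 0.12, adjusted p = 0.212). The groups met at conduit and untreated replicate 2 of Ccny. Ccni, at 318, 297 and 263 CPM in conduit and 182, 186 and 205 CPM in untreated nerves, rose (0.61 ± 0.13, adjusted p = 0.00738), and shares 22839 bases with Septin11 in the gene table. Ccndbp1, which binds cyclin D1 and is not a cyclin, rose as well (0.69 ± 0.14, adjusted p = 0.00562). Cdk16, a kinase activated by cyclin Y, was at 183, 189.6 and 174 CPM in conduit and 140.4, 106 and 129.8 CPM in untreated nerves and rose (0.54 ± 0.14, adjusted p = 0.0165). With library totals none of these 3 was called, at 0.23 for Ccni, 0.31 for Ccndbp1 and 0.16 for Cdk16, and Cdk16 missed the threshold without conduit replicate 2 (adjusted p = 0.0584). Cdk20 fell, at 10.3, 10.3 and 11.0 CPM in conduit and 23.0, 17.0 and 19.8 CPM in untreated nerves (-0.92 ± 0.16, adjusted p = 0.00246). Cdk5, the kinase of postmitotic neurons, was at 17.4, 14.4 and 14.4 CPM in conduit and 22.5, 17.3 and 20.6 CPM in untreated nerves (-0.39 ± 0.16, adjusted p = 0.076), and was called lower without untreated replicate 2 (adjusted p = 0.0321) and with library totals (-0.77, adjusted p = 0.00374). The remaining members of the class, Ccnj, Ccnq, Cdk10, Cdk14, Cdk15, Cdk17 and Cdk18, did not pass and lay between -0.43 and 0.14. The most abundant of the kinases among them by CPM, Cdk10, was at 48.0, 45.2 and 34.4 CPM in conduit and 51.5, 31.1 and 42.04 CPM in untreated nerves, with overlap. With library totals Cdk14 (-0.81, adjusted p = 0.0163) and Cdk17 (-0.54, adjusted p = 0.0334) were called lower.

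Genes that act with these members were read from pathway lists, of which 66 genes were tested. Of these 10 were called higher and 28 lower (15.2% and 42.4%, beside 24% and 26.2% of all genes). With library totals 3 of the 66 were called higher and 37 lower, beside 2291 higher and 6554 lower of the 15464 genes tested. Of 12 regulators of mitotic entry 10 fell (83.3%, beside 26.2% of all genes) and 1 rose (8.33%, beside 24%), with a median of -2.20. Plk1, the polo kinase of mitosis, was at 0.599 ± 0.134 CPM in conduit and 20.0 ± 4.47 CPM in untreated nerves (SD, n = 3 each, -5.05 ± 0.28). Mybl2 (-4.82 ± 0.28), a factor that joins MuvB in cycling cells, and Cks2 (-3.72 ± 0.20), which binds CDK complexes, were the others with the smallest adjusted p. The member of that list that rose was Wee1, which inhibits Cdk1 by phosphorylation, at 29.2 ± 7.66 CPM in conduit and 16.5 ± 1.98 CPM in untreated nerves (SD, n = 3 each, 0.83 ± 0.22, adjusted p = 0.0154). Wee1 was at 0.44 with library totals (adjusted p = 0.138) and missed the threshold without conduit replicate 2 (adjusted p = 0.0514). Of 16 genes of cyclin breakdown 6 fell (37.5%) and 1 rose (6.25%), beside 26.2% and 24% of all genes, with a median of -0.21. Most of that list, 9 of 16, did not pass. Those with the smallest adjusted p were Ube2c (-4.71 ± 0.34), Cdc20 (-2.72 ± 0.25) and Fbxo5 (-2.33 ± 0.28), which act with or on the anaphase-promoting complex.

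Of 7 genes for E2F partners and the DREAM and MuvB complexes, 2 rose (28.6%) and 3 fell (42.9%). The shares over all genes were 24% and 26.2%. The E2F dimer partners differed in sign, with Tfdp2 at 60.6 ± 0.815 CPM in conduit and 15.9 ± 2.10 CPM in untreated nerves (SD, n = 3 each, 1.93 ± 0.13, adjusted p = 9.58e-05) and Tfdp1 at 38.3 ± 1.24 CPM in conduit and 67.3 ± 5.44 CPM in untreated nerves (SD, n = 3 each, -0.81 ± 0.11, adjusted p = 0.00105). Lin52, a MuvB subunit, rose (1.39 ± 0.14, adjusted p = 0.000248). Of 14 genes that work with the transcriptional CDKs 3 rose (21.4%) and 2 fell (14.3%), with a median of 0.06. The shares of all genes were 24% and 26.2%, a gap of few genes in a list of 14. Aff4, a scaffold of the super elongation complex, rose (0.93 ± 0.19, adjusted p = 0.00599, but 0.54 and adjusted p = 0.0615 with library totals). Larp7 of the complex that restrains P-TEFb fell (-0.41 ± 0.12, adjusted p = 0.0235). Without any 1 conduit library or without untreated replicate 3, Larp7 did not pass (adjusted p up to 0.121). Hexim1, the inhibitor in the same complex, rose (0.50 ± 0.17, adjusted p = 0.0377), but passed in only 2 of the 6 fits that left out a library and was at 0.12 with library totals (adjusted p = 0.55). Of 5 genes linked to Cdk5, its activators Cdk5r1 and Cdk5r2 failed the low-count filter, and 0 of the other 3 passed the test.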

How the data were processed

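RNA-seq libraries were made from the sciatic nerve of the conduit group (3 libraries) and the untreated group (3 libraries). The authors deposited raw counts per gene and FPKM values, which equal the count divided by gene length and library total in all 20504 genes checked (tolerance 1e-04). Tools named without versions, per the submitters' processing notes, are fastp, HISAT2, HTSeq and DESeq2, on the mRatBN7.2 build; counting by strand is not given in the sources used here. Counts were fitted here with edgeR 4.0.16 (R 4.3.3, quasi-likelihood test, TMM scaling, filterByExpr at 10 counts, Benjamini-Hochberg at 0.05) on all genes; columns not used numbered 0. FPKM values served only for shares, ratios and limma 3.58.1 alternatives with pseudocounts of 1 and 0.1. Alternatives also included DESeq2 1.42.0, RLE scaling, library totals, other filters, robust dispersions, a replicate block and leaving out each library. The edgeR, DESeq2 and limma fits were run on simulated counts in which few genes changed, equally many up and down. Those counts held no shift between groups like that of the TMM factors here, so they do not bear on the choice of scaling. RefSeq tables of the GRCr8 assembly gave promoters and gene overlaps only; 26 members, 13 of them called, overlap another gene there.

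The members and all lists were chosen with earlier results of these data known. Per-library values are given, in each role, for the called members with the 3 largest fold changes, for every member of roles of 5 or fewer genes and for the member with the highest mean CPM among those that did not pass. Outside the members, up to 3 called genes per list with the smallest adjusted p are named; Wee1, Hexim1, Mki67 and further members described here were picked after their values were seen. A pathway list and 1 marker gene are not reported here by name.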

Additional observations from a re-analysis of the deposited data

How the results depend on the processing

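Of the 35 members called, 25 kept direction and call in every alternative that tested them, out of 16 alternatives. In at least 1 alternative 21 members lost or gained a call with their sign kept. Cdk11b gained a call with its sign changed, with library totals (-0.33, adjusted p = 0.0291) and in the 3 limma settings. Leaving out each library in turn gave 2921 to 3774 genes higher and 2919 to 4108 lower, 6 to 9 members higher and 22 to 26 lower, 3 to 4 cell-cycle members higher and 18 to 20 lower, 0 to 1 transcriptional members higher and 1 to 3 lower, 3 to 4 other members higher and 3 to 4 lower, and 5 to 9 further pathway genes higher and 22 to 29 lower. Library totals alone gave 2291 genes higher and 6554 lower, 3 members higher, 2 cell-cycle members higher, 0 transcriptional members higher and 8 lower, 1 other member higher and 7 lower, and 3 further pathway genes higher. Limma on log2(FPKM + 1), on log2(FPKM + 0.1) and on unfiltered log2(FPKM + 1) gave 2044, 2034 and 2254 genes higher and 6263 lower in the last, with 3 members, 2 cell-cycle members, 0 transcriptional members and 1 other member higher in each, 7, 7 and 6 transcriptional members lower, and 4, 4 and 2 further pathway genes higher; FPKM carries the same library totals. A single transcriptional member was called lower with DESeq2, with RLE scaling and without the low-count filter, and 0 higher without the filter and with the replicate block.

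Changes of sign in at least 1 alternative were seen for 18 members, and of these Cdk19 alone had been called. The values with library totals and with the 3 limma settings, in the order above, were -0.25, -0.22, -0.25 and -0.22 for Ccnq, -0.25, -0.18, -0.24 and -0.18 for Ccnt1, -0.25, -0.18, -0.23 and -0.18 for Ccnt2, -0.19, -0.18, -0.18 and -0.18 for Ccny, -0.35, -0.30, -0.33 and -0.30 for Cdk10, -0.33, -0.31, -0.32 and -0.31 for Cdk11b, -0.35, -0.26, -0.33 and -0.26 for Cdk13, -0.013, -0.0091, -0.0097 and -0.0091 for Cdk19, -0.32, -0.23, -0.30 and -0.23 for Cdk8, -0.26, -0.25, -0.26 and -0.25 for Cdkn2d, -0.14, -0.13, -0.13 and -0.13 for E2f6, and -0.19, -0.16, -0.18 and -0.16 for Rbl2. Ccnd2 was at 0.0066 with DESeq2, 0.011 with RLE scaling and 0.0049 with a minimum of 5 CPM, and Ccnl2 at 0.013 with DESeq2, 0.014 with RLE scaling and 0.011 with the block. Over the left-out libraries, Ccnd2 ran from -0.24 to 0.25, Ccnj from -0.27 to 0.011, Ccnl2 from -0.19 to 0.18, Cdk10 from -0.14 to 0.22, Cdk13 from -0.085 to 0.18, Cdk17 from -0.26 to 0.016, Cdk18 from -0.29 to 0.0093, Cdk8 from -0.046 to 0.19, Cdkn2d from -0.030 to 0.37 and E2f5 from -0.24 to 0.047. Over the genes tested in the main fit, the median was -0.04 with TMM and -0.43 with library totals. In the 3 limma settings it was -0.34, -0.42 and -0.26 for log2(FPKM + 1), log2(FPKM + 0.1) and unfiltered log2(FPKM + 1). Causes other than the scaling were not tested.

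Deviations from the group means correlated at 0.144, -0.0278 and 0.0636 between libraries with the same replicate number in the labels. Between libraries with unlike numbers they correlated at -0.147 to 0.103. Such values, from 3 libraries a group, cannot show whether the replicate numbers pair the libraries. With the numbers as a block, 3622 genes were higher and 3892 lower, and the members Cdkn1a and Cdk19 (adjusted p = 0.094 and 0.0633) and, of the other genes named, Larp7 (0.0525) were not called. Members with few counts, such as E2f8 in conduit nerves, are limited by depth.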
